A study of Homo sapiens with 6 samples.

Results

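The genes examined here encode the receptors and adaptors with which a cell detects nucleic acids in the wrong place, the class of molecules that could respond to a transfected siRNA. They were the 10 rows of the deposited count table with the symbols DDX58, IFIH1, DHX58, TLR3, MAVS, EIF2AK2, TMEM173, MB21D1, IRF3 and TBK1, of 40173 genes in the table. The list was set by gene name, but with earlier results of these data known, so that its shares are a description. RNA-Seq was performed on cells labelled A549, a human lung adenocarcinoma line. Cells were transfected either with an siRNA against the long noncoding RNA FAM83H-AS1 ("silence") or with a scrambled negative control ("control"), and were harvested the day after, with 3 libraries per group. Both groups were therefore transfected with a short RNA, and no untransfected cells were analysed here. The labels do not say whether replicates came from separate cultures, so that p-values measure the spread between these libraries, which may be technical.

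Most of these proteins form relays. The helicase RIG-I (gene DDX58) binds short double-stranded RNA with triphosphate or blunt ends, MDA5 (IFIH1) binds long double-stranded RNA, and LGP2 (DHX58) resembles both but lacks the signalling domains and modulates them. RIG-I and MDA5 signal through MAVS, an adaptor on the mitochondrial membrane, whereas TLR3 senses double-stranded RNA in endosomes. The kinase PKR (EIF2AK2) binds double-stranded RNA and phosphorylates the initiation factor eIF2, which slows translation. For DNA, cGAS (MB21D1) produces a cyclic dinucleotide that activates STING (TMEM173) on the endoplasmic reticulum. The RNA and DNA routes converge on the kinase TBK1 and on IRF3, a transcription factor that switches on type I interferons and a set of antiviral genes, and several of the receptors are themselves known to be induced by interferon.

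A sequence known for its link to these transcription factors is the interferon-stimulated response element, whose core repeats GAAA. RefSeq promoters (build GRCh38.p14, 250 bases before to 50 bases after the start of the gene) could be matched for 6 of the 10 genes, namely DDX58, IFIH1, TLR3, EIF2AK2, MAVS and TBK1. The core, 2 copies of GAAA with any 2 bases between them, was searched on both strands and found in 3 of the 6, IFIH1, TLR3 and EIF2AK2, compared with 3.57% of 35116 promoters. The longer form with 3 such copies, which contains the core in overlapping matches, was present in 0.154% of promoters, and IFIH1 was the only gene of these with it. The windows that hold the matches are shown because they are what the RNA receptors IFIH1, TLR3 and EIF2AK2 share in this search, with the match in capitals and in the direction of the gene, so that a match to the opposite strand reads as copies of TTTC.
IFIH1, chr2:162318821-162318850, minus strand: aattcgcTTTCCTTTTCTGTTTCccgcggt
IFIH1, chr2:162318686-162318715, minus strand: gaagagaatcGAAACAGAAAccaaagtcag
EIF2AK2, chr2:37156967-37156996, minus strand: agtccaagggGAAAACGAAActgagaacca
TLR3, chr4:186069142-186069171, plus strand: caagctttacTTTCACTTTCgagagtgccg
The first of these matches lies 159 bases before the start of IFIH1 and the second 21 bases before it, and those of EIF2AK2 and TLR3 begin 6 and 4 bases before the start. The windows of DDX58, MAVS and TBK1 held no match in these letters, which says nothing of other forms of the element or of other positions. Of the genes with a match, IFIH1 passed the test described next and TLR3 and EIF2AK2 did not.

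Library totals ranged from 9738291 to 17742643 counts. The deepest library, control replicate 3, gave 3.22% of all its counts to RNA5-8SP6, a pseudogene of ribosomal RNA, and the others 0.241% to 0.448%. Values without it are given where leaving it out changes the call of one of the 10 genes or moves the count of a gene list by over 1.5 times. FAM83H-AS1 was at 14.5, 15.9 and 17.2 CPM (the count relative to a TMM-corrected library total) in the control libraries and at 4.58, 4.43 and 5.56 CPM in the silenced libraries, a log2 fold change of -1.70 (SE, the standard error, 0.148, edgeR adjusted p = 7.98e-05). The cell line label was less well borne out. The keratins KRT8 (17073 to 28628 counts) and KRT18 (9738 to 20795 counts) were abundant, and AKR1C1 and AKR1C3 were expressed. However, AKR1B10, an aldo-keto reductase that A549 cells are known to express strongly, had only 9 to 28 counts per library, and KRT19 had 5 to 17. The other epithelial markers of the fixed list were low as well, EPCAM with 32 to 59 counts and CDH1 with 8 to 19. NKX2-1, the lung lineage factor, had 1 to 12 counts, from which nothing about the label is drawn. ALDH1A1, another enzyme known as abundant in A549, had 0 to 2 counts. CDKN2A, a tumour suppressor whose locus is known to be homozygously deleted in A549, had 521 to 955 counts in every library, and its neighbours MTAP and CDKN2B had 365 to 663 and 131 to 213. ALDH1A1, CDKN2A, CDKN2B, MTAP and NKX2-1 were looked up after the levels of the fixed markers had been seen. The libraries of both groups shared this pattern, and the cells are called "the cells labelled A549" here. Of 12 markers of other cell types, the leukocyte markers PTPRC, CD3E and LYZ had at most 1 count in any library, and CD14 had 2 to 6. Below the filter on low counts were 9 markers. The 3 above it were COL1A1, a marker of fibroblasts or muscle (250 to 502 counts), the endothelial VWF (8 to 32 counts) and CD68. The summed level of the 12 was 151 to 173 CPM in the control and 254 to 293 CPM in the silenced libraries. Most of it came from CD68, a lysosomal glycoprotein listed as an immune marker, which had 1196 to 3409 counts. CD68 rose by 0.88 on the log2 scale (edgeR adjusted p = 9.93e-05). What part this plays in the results below was not tested.

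After FAM83H-AS1 silencing, the 3 RIG-I-like receptors DDX58, DHX58 and IFIH1 and the adaptor TMEM173 rose, IRF3 fell, and TLR3, MAVS, EIF2AK2, MB21D1 and TBK1 did not pass the test. The differences were moderate, between 1.22-fold and 1.80-fold for the genes that rose and 0.763-fold for IRF3. All 10 genes had enough counts to be tested, with 46 to 1445 counts per library. By edgeR, 5 of the 10 (50%) passed at an adjusted p under 0.05, with 4 of them higher and 1 lower, compared with 17% of all 15250 tested genes (8.75% higher and 8.27% lower). None had a fold change over 2 beside this, a class that held 2.14% of all tested genes. That count was also 0 at an unadjusted p under 0.05 and by DESeq2. An unadjusted p under 0.05 was found for 6 of the 10 genes and 32.1% of all tested genes, and with the replicate number as a block in the fit 5 of the 10 passed, against 22.6% of all tested genes. The median log2 fold change of the 10 genes was 0.20 and that of all tested genes -0.00069, and 9 of the 10 values were above 0. In 8 of the 10 genes, 7 higher and 1 lower, every silenced library lay on the same side of every control library, compared with 36.6% of all tested genes (19.1% higher and 17.5% lower). For a single gene with 3 libraries per group, the exact permutation test cannot go below p = 0.1, and the calls depend on the moderated variance of the fit. The number of genes with an adjusted p under 0.05 was 3 (DDX58, DHX58 and IRF3) by DESeq2, which called 15.9% of genes. It was 3 as well without control replicate 2, without silenced replicate 1 and without silenced replicate 2, and 4 when any other library was left out. Fewer genes passed in these fits as a whole. Over all tested genes, 1759, 1225 and 1867 passed without those 3 libraries in turn and 1828 to 1962 without any other, compared with 2595 with all libraries.

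**Figure D1:**
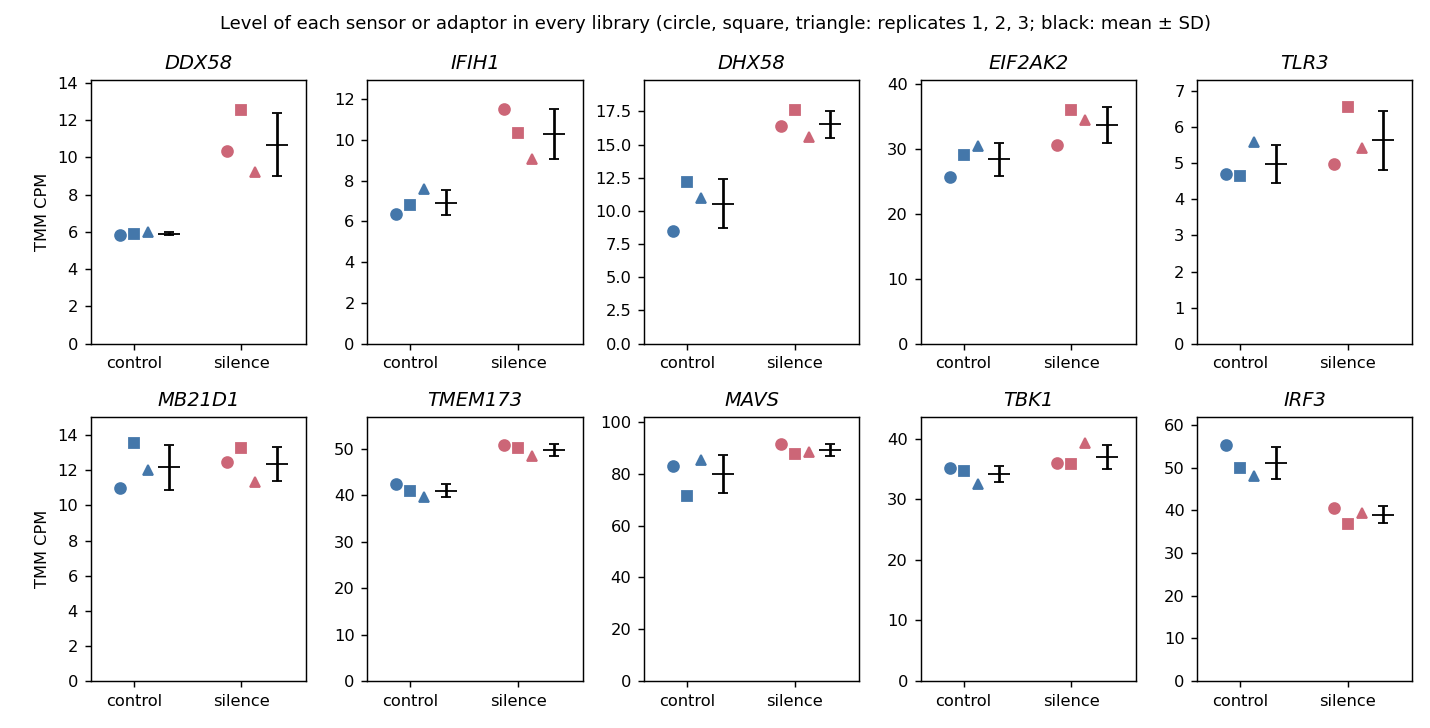
Level of each of the 10 genes in every library, in CPM (vertical axis, starting at 0, with its own scale for each gene), for the control and the silenced cells; the black bars are the mean ± SD of 3 libraries. The groups do not overlap except for TLR3 and MB21D1, and IRF3 is the gene whose silenced libraries lie below the controls.

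Among the RNA receptors, DDX58, which encodes RIG-I, changed most. It was at 5.85, 5.86 and 6.02 CPM in the control libraries and at 10.3, 12.6 and 9.20 CPM in the silenced libraries. All silenced libraries were higher. Their coefficient of variation was 15.9% against 1.6% in the controls. With 57 to 136 counts per library these values are a description, and whether the spread differs between the groups was not tested. The log2 fold change was 0.85 (SE 0.161, 95% confidence interval 0.50 to 1.2, edgeR adjusted p = 0.00603), the only one of the 10 with an adjusted p under 0.01, a threshold passed by 5.92% of all tested genes. DDX58 ranked at 613 of the 15250 tested genes by p. With any library left out, its log2 fold change was between 0.72 and 0.95 and its adjusted p between 0.00868 and 0.0256. Silenced replicate 2, the highest library, was the one whose removal lowered it most.

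DHX58, which encodes LGP2, was at 8.52, 12.2 and 10.98 CPM in the control and at 16.4, 17.6 and 15.6 CPM in the silenced libraries. Here the controls spread more widely than the silenced libraries, and control replicate 1 was the lowest. The log2 fold change was 0.64 (SE 0.141, 95% confidence interval 0.33 to 0.95, edgeR adjusted p = 0.0120), and it was 0.52 without control replicate 1, still with an adjusted p of 0.0289. IFIH1, which encodes MDA5, was at 6.36, 6.81 and 7.61 CPM in the control and at 11.5, 10.3 and 9.05 CPM in the silenced libraries, without overlap. Its log2 fold change was 0.56 (SE 0.154, 95% confidence interval 0.22 to 0.90, edgeR adjusted p = 0.0313). This call was less firm than those of DDX58 and DHX58, since the adjusted p was 0.0534 by DESeq2, 0.0801 without control replicate 1, 0.0835 without control replicate 2, 0.125 without silenced replicate 1 and 0.0697 without silenced replicate 2. The confidence intervals of the 3 receptors overlap, and whether their changes differ from each other was not tested.

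EIF2AK2, which encodes PKR, was at 25.7, 29.1 and 30.6 CPM in the control and at 30.6, 36.0 and 34.5 CPM in the silenced libraries. The highest control and the lowest silenced library were close together, at 30.57 and 30.60 CPM. The log2 fold change of 0.24 (SE 0.09999, 95% confidence interval 0.02 to 0.46) had a p of 0.0349 in edgeR's test before and 0.124 after adjustment, and thus did not pass. TLR3, the endosomal receptor and the lowest of the 10 genes with 46 to 95 counts per library, was at 4.72, 4.66 and 5.61 CPM in the control and at 4.97, 6.55 and 5.42 CPM in the silenced libraries. These values overlap, and the log2 fold change was 0.17 (SE 0.189, edgeR adjusted p = 0.581). Its 95% confidence interval, -0.25 to 0.58, is the widest of the 10 and includes the value found for IFIH1, so that a change of that size is not excluded.

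On the DNA side, the receptor and its adaptor differed in their test results. MB21D1, which encodes cGAS, was at 10.98, 13.5 and 12.04 CPM in the control and at 12.5, 13.3 and 11.4 CPM in the silenced libraries. The groups overlapped fully and the log2 fold change was 0.017 (SE 0.1297, 95% confidence interval -0.27 to 0.30, edgeR adjusted p = 0.949), and the sign was negative when control replicate 1 (-0.047) or silenced replicate 2 (-0.038) was left out. TMEM173, which encodes STING, was at 42.5, 40.9 and 39.7 CPM in the control and at 50.9, 50.3 and 48.4 CPM in the silenced libraries. The spread within both groups was small, 3.39% and 2.54% of the mean, and the difference of 1.22-fold was larger than it. The log2 fold change was 0.28 (SE 0.0750, 95% confidence interval 0.12 to 0.45, edgeR adjusted p = 0.0264). The adjusted p was 0.0533 by DESeq2 and lay between 0.0504 and 0.0988 without control replicate 2 or 3 or without any of the silenced libraries, although the log2 fold change stayed between 0.26 and 0.31, so that TMEM173 passed only narrowly.

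The adaptor MAVS was at 82.8, 71.5 and 85.3 CPM in the control and at 91.6, 87.5 and 88.4 CPM in the silenced libraries, with a log2 fold change of 0.16 (SE 0.0831, 95% confidence interval -0.03 to 0.34, edgeR adjusted p = 0.219). TBK1, the kinase that activates IRF3, was at 35.2, 34.7 and 32.6 CPM in the control and at 36.0, 35.8 and 39.3 CPM in the silenced libraries, with a log2 fold change of 0.12 (SE 0.0836, 95% confidence interval -0.06 to 0.30, edgeR adjusted p = 0.359). In both genes the silenced libraries lay above the controls by a narrow margin, and neither passed the test. The upper bounds of their intervals correspond to a 1.27-fold and a 1.23-fold higher level, below the 1.80-fold estimated for DDX58.

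IRF3, the transcription factor at the end of the relay, was the only one of the 10 genes that fell. It was at 55.3, 49.999 and 48.2 CPM in the control and at 40.6, 36.7 and 39.5 CPM in the silenced libraries, and every silenced library was below every control. The log2 fold change was -0.39 (SE 0.0847, 95% confidence interval -0.58 to -0.20, edgeR adjusted p = 0.0111), and with any library left out it was between -0.44 and -0.33 with an adjusted p of at most 0.0349. In GENCODE 29, 734 bases of the annotated exons of IRF3, 19.3% of their total length, overlap the exons of BCL2L12 on the opposite strand. Whether reads were counted by strand is not given in the sources used here, so that reads from this stretch could belong to either gene. BCL2L12 itself, looked up for this reason after the result had been seen, was at 22.8, 18.7 and 17.6 CPM in the control and at 22.3, 17.4 and 22.0 CPM in the silenced libraries, with a log2 fold change of 0.07 (SE 0.132, edgeR adjusted p = 0.749). Smaller exonic overlaps with a gene on the opposite strand were annotated for TBK1 (702 bases), EIF2AK2 (401 and 35 bases) and MB21D1 (180 bases, with DDX43, which had 0 counts in every library), and none for the other members.

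**Figure D2:**
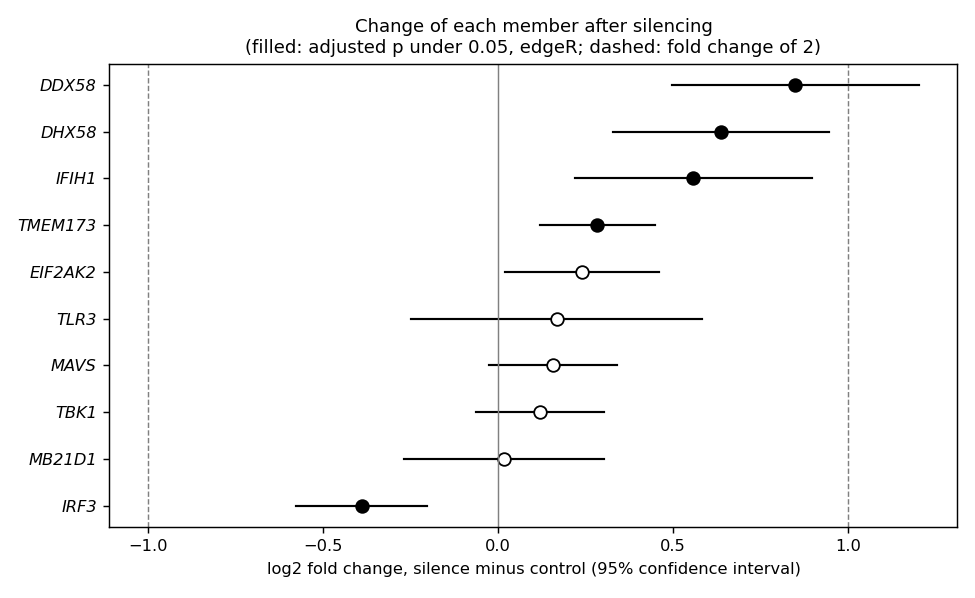
Log2 fold change of each gene (silence minus control, horizontal axis) with its 95% confidence interval; filled points have an adjusted p under 0.05 by edgeR and dashed lines mark a fold change of 2. DDX58 is highest at 0.85 and IRF3 lowest at -0.39, and DDX58 is the gene whose interval crosses a dashed line.

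**Figure D3:**
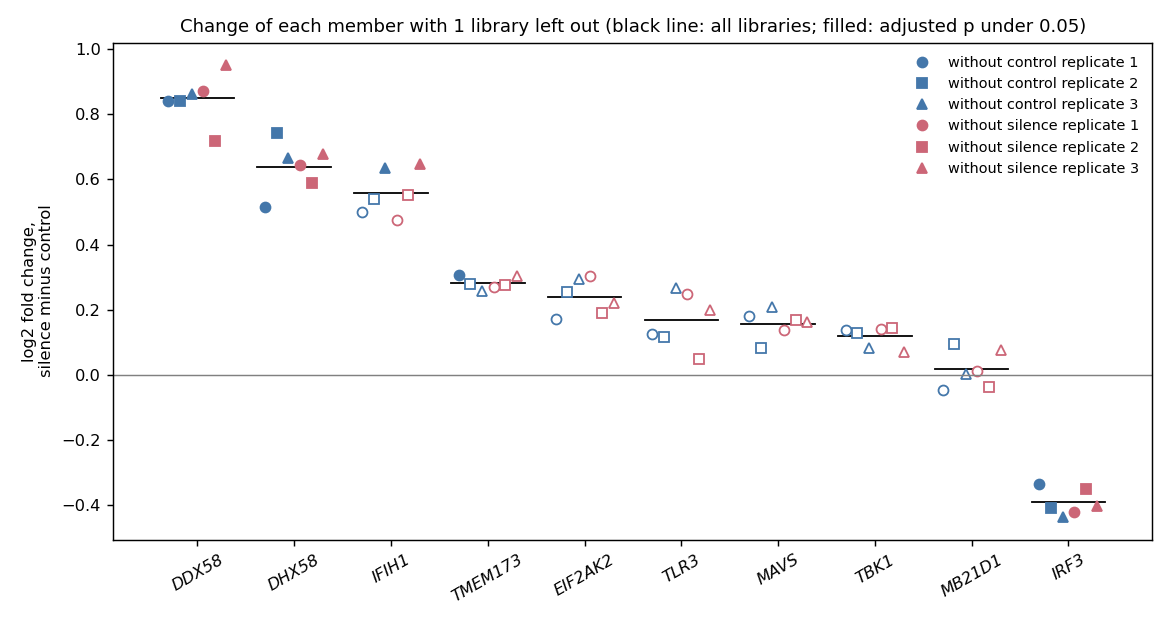
Log2 fold change of each gene with each library left out in turn (vertical axis); the black line is the value from all 6 libraries and filled points have an adjusted p under 0.05 by edgeR. The points of DDX58, DHX58 and IRF3 are filled throughout, those of IFIH1 without control replicate 3 or silenced replicate 3, and that of TMEM173 without control replicate 1.

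Levels of different genes were compared as CPM per kilobase of the longest protein-coding transcript in GENCODE 29. In the control cells the order ran from IRF3 (29.4 ± 2.13) and TMEM173 (23.2 ± 0.785) over TBK1 (10.5 ± 0.420), MAVS (6.82 ± 0.624), DHX58 (4.03 ± 0.709), MB21D1 (3.83 ± 0.403), EIF2AK2 (2.83 ± 0.252) and IFIH1 (1.93 ± 0.176) to DDX58 (1.36 ± 0.0217) and TLR3 (0.830 ± 0.0883; SD, n = 3 each). Adaptors and the transcription factor thus stood above all receptors on this scale, and the RNA receptors IFIH1, DDX58 and TLR3 were the lowest. The libraries of neighbours in this order did not overlap, apart from DHX58 and MB21D1. In the silenced cells IRF3 and TMEM173 exchanged places: IRF3 was at 21.1 to 23.3 CPM per kilobase and TMEM173 at 27.4 to 28.7, whereas in the control cells IRF3 was at 27.7 to 31.8 and TMEM173 at 22.4 to 24.0. The other 8 genes kept their places on this length. When all annotated exons were used as the length in place of the longest transcript, 4 genes had another place in the control order, all among those below MAVS, and IRF3 and TMEM173 still exchanged theirs, while MB21D1 went from place 5 in the control to 7 in the silenced cells, DHX58 from 6 to 5 and EIF2AK2 from 7 to 6.

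**Figure D4:**
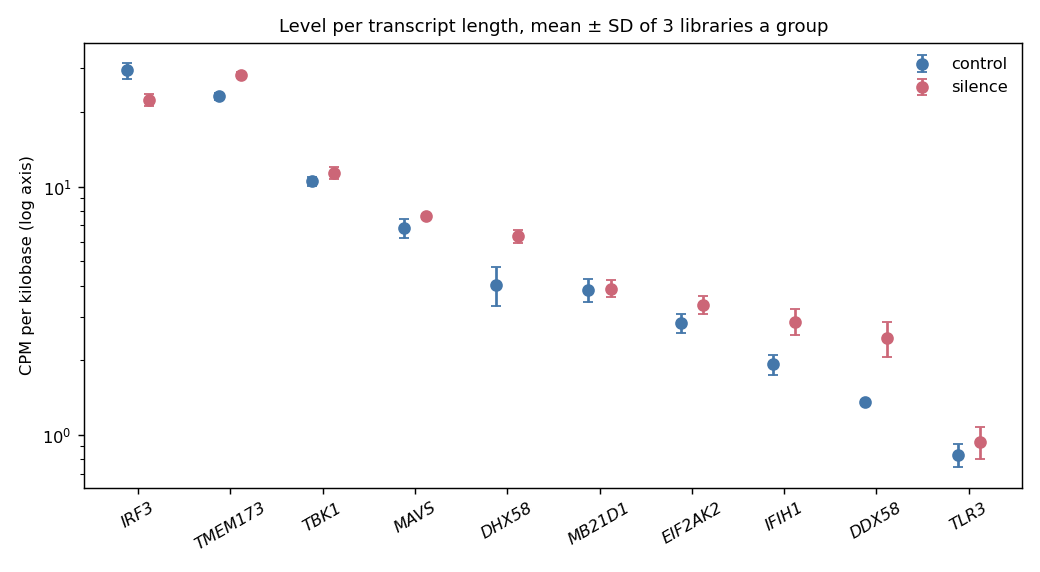
CPM per kilobase of the longest protein-coding transcript (vertical log axis) of each gene in control and silenced cells, as mean ± SD of 3 libraries. IRF3 and TMEM173 exchange places at the top, and DDX58 and TLR3 are lowest in both groups.

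For the genes that passed the test, the tested genes with the most similar profile over the 6 libraries were sought among 12130 others with a mean of at least 50 counts, by Pearson's r of log2 CPM. They were FNIP2, ATXN7L3B and ABCC2 for DDX58 (r from 0.996 to 0.998), TRAPPC9, PEX6 and GINS1 for IFIH1 (0.993 to 0.997), CAST, C1RL-AS1 and LCOR for DHX58 (0.995 to 0.997), TRIML2, LSR and MYO1G for TMEM173 (0.995 to 0.996), and U2AF2, ALPP and LRWD1 for IRF3 (0.996 to 0.997). None of these nearest genes was another of the 10 or shared by 2 of them. With 6 libraries in 2 groups, such values are a description of these libraries only.

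The partners of these proteins were followed in fixed lists, which were also chosen with earlier results of these data known. Of 22 genes that regulate the RIG-I-like receptors and MAVS, 3 rose, 2 fell and 17 did not pass, with a median log2 fold change of -0.07. The share that passed, 22.7%, was near the 17% of all tested genes. The largest rise was that of ZC3HAV1 (0.56, edgeR adjusted p = 0.00266), an antiviral zinc finger protein of which a short form assists RIG-I. It was at 70.6, 84.4 and 84.7 CPM in the control and at 114, 126 and 113 CPM in the silenced libraries. CYLD, a deubiquitinase that restrains RIG-I (0.47), and ITCH, a ubiquitin ligase that targets MAVS (0.27), also rose. TRIM65, a ubiquitin ligase that activates MDA5 (-0.46), and PSMA7, a proteasome subunit (-0.31), fell. TRIM25 and RNF135, ligases for RIG-I, did not pass. The number of genes that passed was 3 without control replicate 1 or control replicate 3, and 2 without silenced replicate 1.

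Around TBK1 and IRF3, 2 of 11 listed genes rose, 1 fell and 8 did not pass (27.3% passed, compared with 17% of all tested genes), with a median of 0.06. IKBKE, the kinase most closely related to TBK1, was at 38.1, 36.2 and 40.9 CPM in the control and at 49.4, 58.8 and 57.3 CPM in the silenced libraries, a log2 fold change of 0.52 (SE 0.0907, edgeR adjusted p = 0.00395). OPTN, a TBK1-binding adaptor, rose by 0.26. TBKBP1, a scaffold of TBK1, fell by 0.52 on the log2 scale (edgeR adjusted p = 0.0213). Without silenced replicate 1 or silenced replicate 3, 1 gene of this list passed. Of 11 genes of the endosomal Toll-like receptors and their adaptors, most of which serve TLR7, TLR8 and TLR9 rather than TLR3, 7 were tested, of which 1 rose and 2 fell (42.9% passed, compared with 17% of all tested genes), with a median of 0.14. HSP90B1, a chaperone for Toll-like receptors among many other clients, rose by 0.66, and UNC93B1, which escorts the endosomal receptors, fell by 0.46 on the log2 scale, as did IRAK1, a kinase of the MYD88 branch that TLR3 does not use, by 0.33. Without control replicate 1, 1 of these genes passed. The receptors TLR7, TLR8 and TLR9 had at most 3 counts in any library. TICAM1, the adaptor of TLR3, did not pass, with a log2 fold change of 0.17 (edgeR adjusted p = 0.279) and overlapping groups.

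Of 14 genes of the PKR axis, 2 rose, 1 fell and 11 did not pass, with a median of 0.03. The share that passed, 21.4%, was near the 17% of all tested genes. PPP1R15A, the phosphatase subunit that reverses eIF2 phosphorylation, was at 39.8, 36.0 and 41.4 CPM in the control and at 66.6, 61.3 and 58.6 CPM in the silenced libraries (log2 fold change 0.67, edgeR adjusted p = 0.000821). PPP1R15B, the constitutive subunit, rose by 0.26. Without control replicate 1 or silenced replicate 1, 1 gene of the axis passed. Of 19 cofactors of cGAS and STING, 4 rose and 3 fell (36.8% passed, compared with 17% of all tested genes), with a median of -0.02. RHBDF2 (0.40), IFI16, a nuclear DNA sensor (0.32), SURF4, a cargo receptor that returns STING to the endoplasmic reticulum (0.30), and SAMHD1, a dNTP hydrolase (0.28), were higher. RNASEH2C, a subunit of the enzyme that removes ribonucleotides from DNA (-0.58), BANF1, a chromatin protein that limits cGAS (-0.39), and ZDHHC7 (-0.29) were lower. The number that passed was 4 without control replicate 3 and 3 without silenced replicate 1.

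Of 19 further sensors of double-stranded RNA or DNA, 17 were tested, 6 rose (35.3% of those tested, compared with 8.75% higher among all tested genes) and 11 did not pass, with a median of 0.10. DDX60 (0.93) and DDX60L (0.77), helicases of the same superfamily, ZNFX1 (0.77), a helicase known as an RNA sensor at mitochondria, and IFIT1 (0.76), which binds RNA lacking a mature cap, changed most. ZNFX1 was at 115, 116 and 115 CPM in the control and at 196, 197 and 194 CPM in the silenced libraries (edgeR adjusted p = 6.56e-05). ZBP1 and AIM2 had at most 1 count in any library. Of 15 genes of interferon receptor signalling, 14 were tested and 6 rose (42.9%, compared with 8.75% higher among all tested genes), with a median of 0.35. They were IRF1 (0.50), the receptor kinase JAK1 (0.46), the receptor chains IFNAR2 (0.44) and IFNAR1 (0.35), STAT2 (0.40) and SOCS3 (0.32), of which SOCS3 was not named by the rule of at most 4 and is given to complete the 6, as is IFNAR1.

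The interferon ligands of the last fixed list, at the far end of the pathway, had few or no counts. Other interferon genes, such as the IFNA family, were not in the list. IFNB1, IFNL2 and IFNL3 had 0 counts in all 6 libraries, which allows up to 3 counts per library, or 0.177 to 0.308 CPM, and IFNL1 had 1 count in 1 silenced library. IFNE, an interferon of epithelia, had 2, 5 and 2 counts in the control and 3, 0 and 6 counts in the silenced libraries, too few to be tested. CXCL10, a chemokine induced by IRF3 and interferon, had at most 2 counts, RSAD2 at most 1, and CCL5 between 1 and 12. By contrast, all 4 tested genes of this list rose (8.75% of all tested genes were higher), with OASL at 13.0, 9.48 and 7.67 CPM in the control and 28.3, 28.1 and 31.4 CPM in the silenced libraries (log2 fold change 1.57, edgeR adjusted p = 0.000225). ISG15, a ubiquitin-like modifier (1.11), IFIT2 (1.17) and IFIT3 (0.94) rose as well. The limit for a count of 0 covers counting error only.

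**Figure D5:**
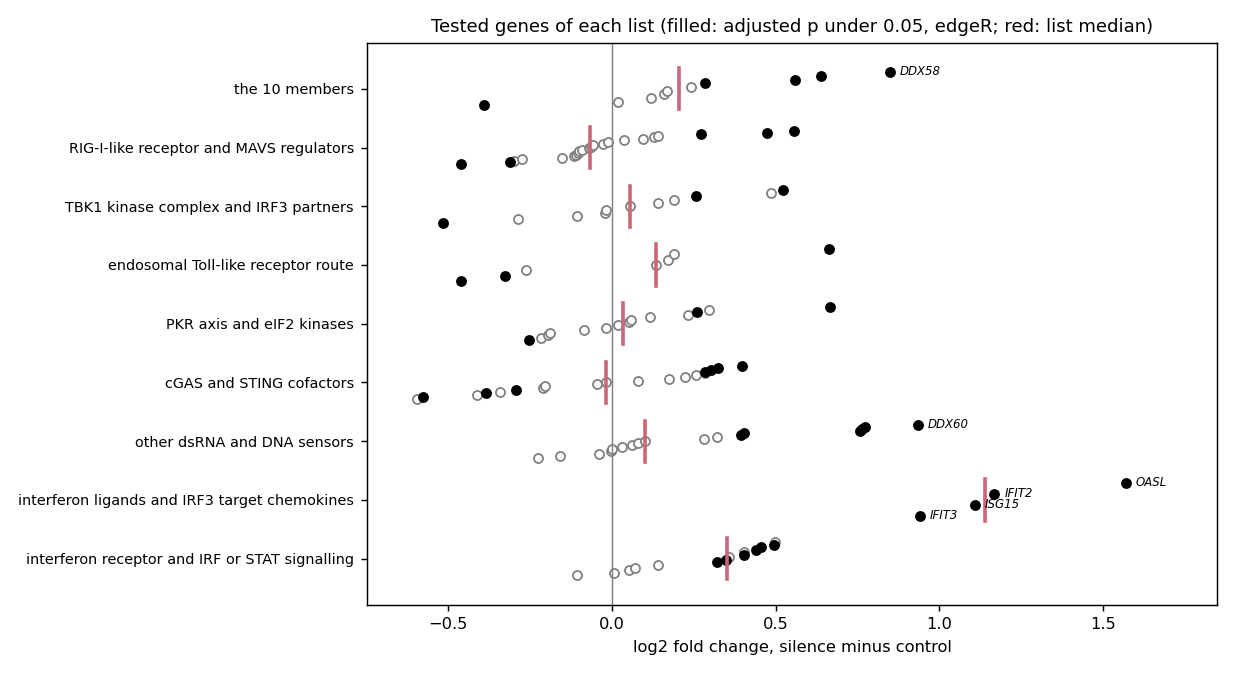
Log2 fold change (silence minus control, horizontal axis) of every tested gene in each fixed list; filled points have an adjusted p under 0.05 by edgeR and red bars are list medians. The list named for interferon ligands and IRF3 targets lies farthest to the right, with OASL at 1.57. It holds 4 tested genes only, ISG15, IFIT2, IFIT3 and OASL, and no ligand is among them. The regulators and cofactors lie on both sides of 0.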

How the data were processed

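Total RNA of 6 libraries was sequenced on an Ion Proton instrument. According to the study's methods, the authors mapped the reads with MapSplice and counted them per gene, and the submitters' processing notes name the build GRCh37. The annotation, the MapSplice version and the treatment of strand and of multiple matches are not given in the sources used here. The deposited values are whole counts without normalization, by gene symbol. Gene lengths and overlaps came from GENCODE 29 (GRCh38) by symbol, and promoters from RefSeq, in which DDX58 is listed as RIGI. The gene called MB21D1 in the table is CGAS in GENCODE 29.

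Counts were analysed with edgeR 4.0.16 in R 4.3.3: filterByExpr (15250 of 40173 genes), TMM normalization, quasi-likelihood F test of silence against control over all 6 libraries, and Benjamini-Hochberg adjustment over all tested genes. Standard errors were derived from the size of the log2 fold change and the F statistic. "Rose" and "fell" mean an adjusted p under 0.05, the limit in the study's methods, without its limit of 2 on the fold change, which is counted separately. The study's results use a stricter limit of 0.01, tried as an alternative. The members and lists were chosen with earlier results of these data known. Named were all members and, of each list, the genes that passed, at most 4 in each direction by size. Some listed genes that did not pass or were not tested are named as well. A gene of the PKR axis that passed is not reported here by name. Lists are described by counts and medians, without a test of the list. Same-numbered replicates of the groups were not treated as pairs, since the labels state no pairing. Their deviations from the group means correlated at 0.124, 0.149 and 0.067, higher than in any other pairing, and a replicate block was therefore kept as an alternative. Libraries within each group showed more spread than counting error gives. The chi-square per degree of freedom was 3.92 to 9.47 for pairs without control replicate 3. It was 22.7 and 26.8 for the pairs with that library, in which RNA5-8SP6 took 3.22% of the counts. The scripts were tested on simulated data. Alternatives were DESeq2 1.42.0, RLE size factors, library size only, other filters, genes of type mRNA only, a replicate block, thinning of all libraries to the lowest depth, an adjusted p under 0.01 and each library left out. The length of all annotated exons was added after the data had been seen.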

Additional observations from a re-analysis of the deposited data

How the results depend on the processing

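DDX58 had an adjusted p under 0.05 in every alternative, and DHX58 and IRF3 in every alternative except the adjusted p under 0.01 (0.64 and -0.39, unchanged values). IFIH1 (0.56) and TMEM173 (0.28) missed that threshold too, which left 1 of the 10 genes, 903 of all genes and 148 with a fold change over 2. The fixed lists then held 3 genes (RIG-I-like receptor regulators), 1 (TBK1 partners), 1 (endosomal route), 1 (PKR axis), 3 (cGAS and STING cofactors) and 2 (interferon receptor signalling). The list of further sensors still held 5 of its 6, and that of interferon ligands and IRF3 targets all 4. By DESeq2, IFIH1 (0.56) and TMEM173 (0.28) did not pass, which left 3 genes; the cause was not tested. With libraries left out in turn, the log2 fold change of IFIH1 was 0.47 to 0.65, of TMEM173 0.26 to 0.31 and of MB21D1 -0.047 to 0.095, the only change of sign (also -0.038 without silenced replicate 2); 3 to 4 of the 10 genes passed and their median was 0.18 to 0.26, highest without control replicate 3. Of all genes, 1225 to 1962 then passed, and 200 to 335 with a fold change over 2. The lists held 2 to 4 (RIG-I-like receptor regulators), 1 to 3 (TBK1 partners), 1 to 3 (endosomal route), 1 to 3 (PKR axis) and 3 to 7 genes (cGAS and STING cofactors). The remaining lists held 5 to 6 (further sensors), 4 (interferon ligands and IRF3 targets) and 4 to 6 genes (interferon receptor signalling). The filter moved the number of genes with a fold change over 2 to 583 (all genes with at least 1 count) and 199 (at least 10 counts in every library). The PKR axis of 14 genes held 5 by library size only, 6 among mRNAs only and 7 with the replicate block. In these fits 2545 of 15250, 2850 of 12258 and 3449 of 15250 tested genes passed. The same-numbered libraries correlated at 0.124, 0.149 and 0.067 in their deviations from the group means, higher than any other pairing, a hint from the data and not the design. With the block, 5 of the 10 genes and 3449 of all genes passed, and no call among the 10 changed. FAM83H-AS1 kept its call in all alternatives; it is no mRNA in the table and has no value in the fit of mRNAs. TLR3, with the fewest counts of the 10, has the widest confidence interval.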
